A study of Homo sapiens with 4 samples.

Results

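The BRCA, Fanconi and homologous recombination repair genes are a hand-picked set of 39 genes whose products find, trim and repair broken or crosslinked DNA and matched to the array by gene symbol. The rule that picks them uses no measured value, but the set was chosen with earlier results of these data known. Its counts beside those of all genes are therefore a description. All 39 had at least 1 probe on the array and all 39 passed the filter on dim probes, out of 27223 genes tested and 29123 gene names on the array. Homologous recombination rebuilds a broken chromosome from an intact copy, in steps that run from resection of the broken ends to invasion of the intact copy, for which BRCA2 prepares the resected strand. The Fanconi pathway unhooks crosslinks between the strands of DNA and hands the resulting break to the same machinery. Ovarian cancers that have lost this repair are known for their sensitivity to platinum drugs and to inhibitors of PARP, the enzyme that senses nicks in DNA.

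RNA was measured in clones of A2780s, a line of ovarian adenocarcinoma cells, on 4 Agilent 2-colour whole-genome arrays, with RNA of a control clone (Ctrl) in the Cy3 channel and RNA of an edited clone in the Cy5 channel. The GALNT3 KO group held 2 clones in which CRISPR/Cas9 was aimed at GALNT3, an enzyme that starts O-linked glycosylation. A group labelled GALNT3/T6 KO held 2 clones, made by adding shRNA against its relative GALNT6 to GALNT3 KO clones, so an shRNA construct and a further selection go with that group. Ctrl was mock-transfected, with a control plasmid in place of the one against GALNT3, and no array of the series compared Ctrl with Ctrl. The paper also describes control clones that carry a scrambled shRNA vector. Whether such a Ctrl served the arrays of the second group is not stated. Each array gave a log2 ratio of the clone over Ctrl, so the spread of Ctrl itself was not measured. Whether 1 Ctrl clone or several served the 4 arrays is not given in the sources used here. Dye and genotype cannot be told apart because the labels place Ctrl in Cy3 on all 4 arrays. The paper's methods describe Ctrl cRNA labelled in the reverse colour, without saying on which arrays. The labels were followed, so the direction of every ratio rests on them. With 2 clones per group, a p-value speaks only of these clones. Its error comes from their spread, pooled over both groups and drawn toward the spread typical of all genes.

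On the arrays as a whole, 86.9 to 93.8% of the probes in each channel stood well above background and 0 spots were saturated. The log2 ratios of the 2 GALNT3 KO arrays correlated at r = 0.835 across genes and those of the other group's 2 arrays at r = 0.917. The GALNT3 probe did not rise well above background on the GALNT3 KO arrays, in Ctrl or in the other channel, so it checked nothing there. On the arrays of the group labelled GALNT3/T6 KO it stood at log2 ratios of 4.80 and 5.08, which goes against the label, and these 2 arrays are therefore called the GALNT3/T6-labelled arrays. GALNT6 stood at -0.47 and -0.38 on the GALNT3 KO arrays and at -0.66 and -0.69 on the GALNT3/T6-labelled arrays. The Ctrl signal of GALNT3 was well above background on both GALNT3/T6-labelled arrays and on neither GALNT3 KO array. A gene is called here where the adjusted p of limma's moderated test, with Benjamini-Hochberg adjustment over all 27223 genes, is at most 0.05. Among 9 markers of ovarian carcinoma epithelium, 0 were called in GALNT3 KO and 7 were called higher on the GALNT3/T6-labelled arrays, with the list's median log2 ratio at 1.10 and 1.36 on those arrays and at 0.07 and 0.10 on the others. The keratin genes KRT18 and KRT19 had mean log2 ratios of 5.68 and 4.81 there. Of 6 fibroblast markers, 3 were called lower and 2 higher on the GALNT3/T6-labelled arrays. The 2 higher were PDGFRB and COL1A1, at mean log2 ratios of 3.44 and 1.985. Of 5 leukocyte markers, 1 was called lower and 0 higher, and of 4 endothelial markers, 0 lower and 2 higher. LYZ of leukocytes did not pass the filter, being above background on 2 arrays in the Cy5 channel and on 0 in Ctrl. PECAM1 of endothelium was above background on 0. The part that these marker differences had in the results on repair genes was not tested.

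A position effect also touched the log2 ratios against Ctrl and is described here because calls depended on it. The arrays hold their spots in 532 rows, in the same layout each time, and the ratio fell along the rows on all 4 arrays. With the rows cut into 10 equal bands, the highest band's median ratio exceeded the lowest band's by 0.44 and 0.49 on the GALNT3 KO arrays and by 0.49 and 0.52 on the GALNT3/T6-labelled arrays. A gene printed early in the layout therefore read higher against Ctrl in both groups, and one printed late read lower. Fitting and subtracting a smooth trend over rows and columns, a step chosen after seeing the data, lowered the median SD over the repeat spots of 264 probes from 0.249 to 0.113. For the repair genes, the group mean before that step minus the mean after it ran from -0.26 to 0.29. Calls lost or gained by that step are given beside the results.

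**Figure D1:**
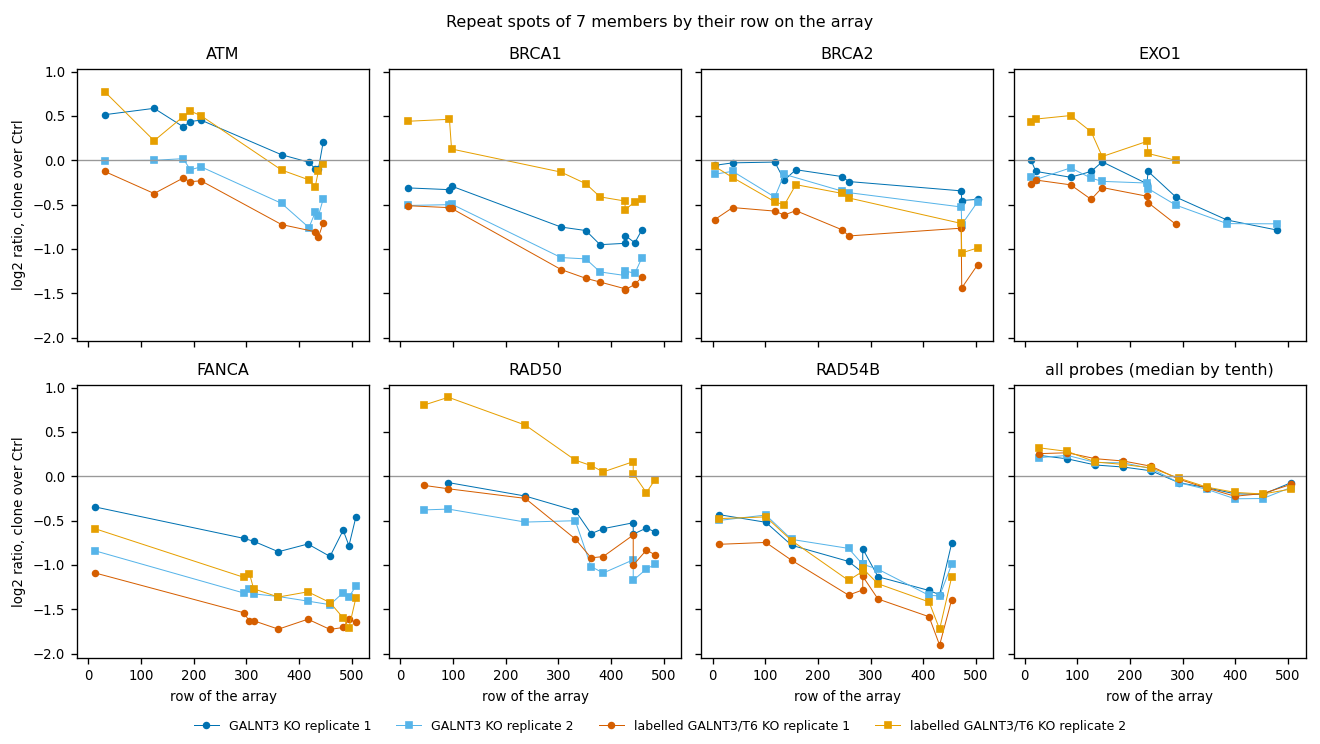
Log2 ratio of clone over Ctrl (vertical axis) at each spot of the 7 repair genes whose probe was printed up to 10 times, against the spot's row on the array (horizontal axis), with 1 colour and marker per array. The last panel gives the median of all probes in each of 10 bands of rows. The spots of BRCA1 in rows 15 to 97 lie above its later spots on every array, and the medians of all probes fall along the rows on every array.

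Most of the repair genes read lower in the clones than in Ctrl, 34 of 39 by their mean in GALNT3 KO and 31 of 39 on the GALNT3/T6-labelled arrays, where 47.1% and 47.4% of all genes did so. In GALNT3 KO, 10 of the 39 repair genes were called lower and 0 higher, where 6.34% of all genes were called lower and 4.69% higher. On the GALNT3/T6-labelled arrays, 19 were called lower and 5 higher, where 23.1% of all genes were called lower and 24.8% higher. The median log2 ratio of the 39 genes was -0.38 in GALNT3 KO and -0.43 on the GALNT3/T6-labelled arrays, beside 0.02 and 0.03 over all genes. By array, the median was -0.42 and -0.40 in the GALNT3 KO clones and -0.77 and -0.36 in the GALNT3/T6-labelled clones. By the methods' own threshold, a 1.5-fold change with an unadjusted p up to 0.05, the counts were 11 lower and 0 higher in GALNT3 KO, where 6.38% and 3.22% of all genes passed, and 19 lower and 3 higher on the GALNT3/T6-labelled arrays, where 17.3% and 14.6% passed. In RNA from whole cultures, fewer cells of a kind and less RNA per cell cannot be told apart.

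The GALNT3 KO count depended on the processing more than the median did. With the row and column trend removed, 3 genes stayed called lower in GALNT3 KO, namely RAD54L, RAD54B and FANCM, where 1.80% of all genes were called lower and 0.911% higher, and the median was -0.37. Agilent's own log ratios, which spanned 0.0776 to 0.12 between such bands, gave 2 calls, where 2.17% of all genes were called. Leaving out a GALNT3 KO array leaves 1 array in that group, assumed to vary like the other pair, and such fits called 0 of all genes in this comparison, so they say nothing of the repair genes in particular (12 without replicate 1 and 11 without replicate 2 had an unadjusted p under 0.05 in limma). When either GALNT3/T6-labelled array was left out, 22 repair genes and 34.7% of all genes were called. On the GALNT3/T6-labelled arrays, removal of the trend left 22 genes called, 18 lower and 4 higher, where 41.1% of all genes were called, with 20 genes shared with the calls above and a median of -0.56.

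**Figure D2:**
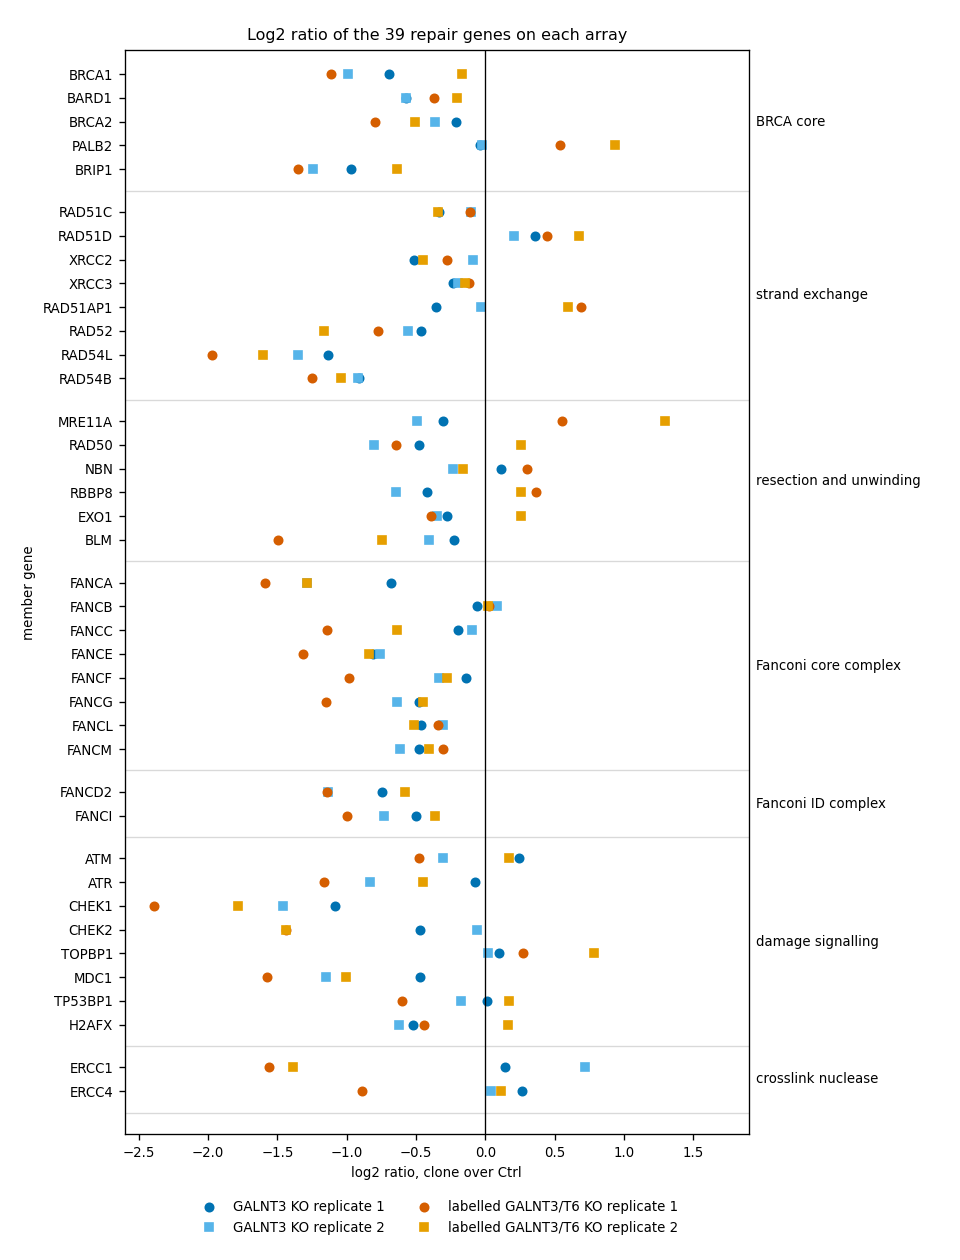
Log2 ratio of clone over Ctrl (horizontal axis) for each of the 39 repair genes (vertical axis, grouped by role), with 1 marker per array and a line at 0. CHEK1 and RAD54L lie below -1 on all 4 arrays, while PALB2, RAD51AP1, MRE11A and RBBP8 lie above 0 on both GALNT3/T6-labelled arrays and below 0 on both GALNT3 KO arrays.

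The promoters show what many of these genes share in sequence. E2F factors switch on genes of DNA replication and repair as cells enter S phase, and the motif they bind has several forms. The word TTCCCGC is a form of it, the word TTGGCGC is another, and so are the word TTCGCGC and, with the same first 2 and last 3 letters, the word TTGCCGC. Promoter sequences of 36 of the 39 genes were taken from RefSeq (build GRCh38.p14, 250 bases before to 50 after the start), and RAD54B, NBN and FANCI were not matched. On either strand, 19 of the 36 promoters, or 52.8%, held at least 1 of the 4 words, where 13.1% of all 27305 promoters and 17.8% of the promoters of genes tested held one. Among the genes called lower on the GALNT3/T6-labelled arrays, 12 of 17 matched promoters held a word, as did 3 of 5 among those called higher and 4 of 14 among those not called. The word CCAAT, the core of the NF-Y motif, was in 44.4% of the 36 promoters, in 35.7% of all promoters and in 36.2% of those of genes tested. The word TTTGAA, the core of a motif of genes expressed late in the cell cycle, was in 13.9%, 15.4% and 11.3%. None of these words contains another, and each match is a description of letters, not of binding.

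Promoters of 4 genes with large decreases are printed to show the words in place, 3 with E2F words and CHEK1 with none, each read 5′ to 3′ along the gene with any E2F word, on either strand, in capitals. RAD54L lies on the plus strand at chr1:46247438-46247737, BRIP1 on the minus strand at chr17:61863479-61863778, FANCA on the minus strand at chr16:89816598-89816897 and CHEK1 on the plus strand at chr11:125625979-125626278.
RAD54L: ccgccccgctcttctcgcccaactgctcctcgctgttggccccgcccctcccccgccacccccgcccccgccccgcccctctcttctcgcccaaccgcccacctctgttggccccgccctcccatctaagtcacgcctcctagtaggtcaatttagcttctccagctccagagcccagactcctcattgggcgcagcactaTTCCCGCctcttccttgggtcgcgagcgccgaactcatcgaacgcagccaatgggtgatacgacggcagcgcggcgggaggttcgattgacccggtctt
BRIP1: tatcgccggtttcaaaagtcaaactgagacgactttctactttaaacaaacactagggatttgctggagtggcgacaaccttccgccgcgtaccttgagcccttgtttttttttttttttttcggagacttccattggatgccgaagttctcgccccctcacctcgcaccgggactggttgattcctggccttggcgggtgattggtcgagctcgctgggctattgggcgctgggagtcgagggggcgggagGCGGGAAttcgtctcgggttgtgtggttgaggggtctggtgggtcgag
FANCA: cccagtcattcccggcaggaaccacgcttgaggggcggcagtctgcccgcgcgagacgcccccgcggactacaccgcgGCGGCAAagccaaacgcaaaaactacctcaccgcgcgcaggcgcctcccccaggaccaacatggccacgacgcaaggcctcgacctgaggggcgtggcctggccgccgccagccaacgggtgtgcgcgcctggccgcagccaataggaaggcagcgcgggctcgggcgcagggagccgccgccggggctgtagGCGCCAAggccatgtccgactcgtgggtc
CHEK1: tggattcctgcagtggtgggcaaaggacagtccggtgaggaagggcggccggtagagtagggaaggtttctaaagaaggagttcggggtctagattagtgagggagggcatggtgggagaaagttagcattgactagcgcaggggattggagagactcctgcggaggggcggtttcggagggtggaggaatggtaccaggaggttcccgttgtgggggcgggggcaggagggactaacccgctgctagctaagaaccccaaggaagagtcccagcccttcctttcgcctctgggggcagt
RAD54L and BRIP1 each held 1 word, FANCA held 2, and CHEK1, the gene with the lowest mean of the set, held 0. Other genes had lower means than BRIP1 on the GALNT3/T6-labelled arrays and are not printed. Of these, ERCC1 and CHEK2 (-1.47 and -1.44) held 0 words. MDC1, BLM and FANCE (-1.29, -1.12 and -1.08) held 1, 3 and 1, and RAD54B was not matched.

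The BRCA core holds the tumour suppressors that direct a break into recombination. BRCA1, the ubiquitin ligase subunit that promotes resection, stood at log2 ratios of -0.69 and -0.99 on the GALNT3 KO arrays and at -1.12 and -0.17 on the GALNT3/T6-labelled arrays. The clones of the second group lay far apart, and neither mean passed the test (-0.84 ± 0.24 and -0.64 ± 0.24, SE, n = 2, limma adjusted p = 0.0866 and 0.0857). Both errors come from 1 spread shared by the 2 groups. With the GALNT3 KO arrays alone, the SE of that group's mean was 0.11 and it was called lower (limma adjusted p = 0.00087). In that fit 34.7% of all genes were called. BARD1, the partner that stabilises BRCA1, stood at -0.57 on both GALNT3 KO arrays and was called lower there (-0.57 ± 0.087, adjusted p = 0.0336), and at -0.37 and -0.20 on the others, which was not called. Its GALNT3 KO call was lost with the row trend removed (-0.42, adjusted p = 0.0927). BRCA2, which prepares the resected strand for invasion, stood at -0.21 and -0.37 in GALNT3 KO and at -0.80 and -0.51 on the GALNT3/T6-labelled arrays. Only the second group was called (-0.65 ± 0.11, adjusted p = 0.00911), and the difference between the groups was not (-0.36, 95% interval from -0.77 to 0.04).

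BRIP1, the helicase that binds BRCA1, was the BRCA core gene with the lowest mean. It stood at -0.97 and -1.24 in GALNT3 KO and at -1.35 and -0.64 on the GALNT3/T6-labelled arrays, and was called lower in both (-1.10 ± 0.19, adjusted p = 0.0401, and -0.99 ± 0.19, adjusted p = 0.0139). A dimmer BRIP1 probe read -0.04 and 0.19 for the group means, and with the row trend removed the GALNT3 KO mean was -0.90 and its call was lost (adjusted p = 0.0808). PALB2, the bridge between BRCA1 and BRCA2, ran the other way. It stood at -0.04 and -0.02 in GALNT3 KO and at 0.54 and 0.93 on the GALNT3/T6-labelled arrays, where it was called higher (0.74 ± 0.12, adjusted p = 0.00839).

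Among the 8 factors of strand exchange, the motor proteins that help a strand to invade the intact copy were called lower in both groups. RAD54L stood at -1.14 and -1.35 in GALNT3 KO and at -1.97 and -1.61 on the GALNT3/T6-labelled arrays. These are decreases of 2.37-fold and 3.45-fold (-1.25 ± 0.12, adjusted p = 0.0194, and -1.79 ± 0.12, adjusted p = 0.000709). Its relative RAD54B stood at -0.91 and -0.92 in GALNT3 KO and at -1.25 and -1.04 in the other group (-0.91 ± 0.091, adjusted p = 0.0192, and -1.15 ± 0.091, adjusted p = 0.00101). RAD54L and RAD54B kept their calls in both groups under each of the 9 other ways of processing the same 4 arrays.

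RAD52, which anneals single strands, stood at -0.46 and -0.55 in GALNT3 KO, not called (adjusted p = 0.0634), and at -0.77 and -1.17 on the GALNT3/T6-labelled arrays, called lower (-0.97 ± 0.12, adjusted p = 0.00388). RAD51AP1, a stimulator of strand invasion, stood at -0.35 and -0.03 in GALNT3 KO and at 0.69 and 0.59 on the GALNT3/T6-labelled arrays. It was thus called higher in the second group (0.64 ± 0.11, adjusted p = 0.00986). RAD51D, a factor of strand exchange, was called higher there by its brightest probe, at 0.44 and 0.67 (0.56 ± 0.10, adjusted p = 0.0113). Its 3 other probes read between -0.87 and -0.69 in the same group, and their mean with the first was called lower (-0.45, adjusted p = 0.0109), so RAD51D has no settled direction. The brightest probe, at chr17:33424771-33424830 (hg19), lies 2225 bases from the nearest other. RAD51C, XRCC2 and XRCC3, which work in complexes with it or with each other, were called in neither group and ranged from -0.52 to -0.09 over the 4 arrays. XRCC2 was called lower on the GALNT3/T6-labelled arrays once the row trend was removed (adjusted p = 0.0141).

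The 6 genes of end resection and unwinding did not move as a block. RBBP8, also known as CtIP, which starts resection, stood at -0.42 and -0.64 in GALNT3 KO and at 0.36 and 0.25 on the GALNT3/T6-labelled arrays. It was called lower in GALNT3 KO (-0.53 ± 0.096, adjusted p = 0.0425), a call lost with the trend removed (-0.46, adjusted p = 0.0683). In the other group it reached adjusted p = 0.0536, and 0.0194 with the trend removed. MRE11A, the nuclease of the complex that first binds broken ends, stood at -0.31 and -0.49 in GALNT3 KO and at 0.55 and 1.29 on the GALNT3/T6-labelled arrays. The second mean was called higher (0.92 ± 0.19, adjusted p = 0.0175), without the trend it was not (0.77, adjusted p = 0.0595), and a dimmer MRE11A probe read 0.08.

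BLM, the helicase that dissolves recombination intermediates, stood at -0.22 and -0.40 in GALNT3 KO and at -1.50 and -0.75 on the GALNT3/T6-labelled arrays. It was called lower in the second group (-1.12 ± 0.20, adjusted p = 0.0103). RAD50 and NBN, the partners of MRE11A, and EXO1, the exonuclease of long-range resection, were called in neither group, with values from -0.80 to 0.30 over the 4 arrays. By the brightest probe, the GALNT3/T6-labelled clones fell on either side of 0 for each of these 3 genes. The other probes of RAD50 read below 0 in both clones, and the other probe of NBN above 0 in both.

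The Fanconi core complex, the ubiquitin ligase of the pathway, had 3 of 8 subunits called lower in GALNT3 KO and 7 of 8 on the GALNT3/T6-labelled arrays, where 6.34% and 23.1% of all genes were. The median ratio of the 8 was -0.47 and -0.71. FANCA stood at -0.68 and -1.29 in GALNT3 KO and at -1.59 and -1.29 on the GALNT3/T6-labelled arrays. It was called lower in both (-0.99 ± 0.17, adjusted p = 0.0413, and -1.44 ± 0.17, adjusted p = 0.00352). FANCE, which links the core to its substrate, stood at -0.81 and -0.76 in GALNT3 KO and at -1.32 and -0.84 in the other group. It was also called lower in both (-0.78 ± 0.14, adjusted p = 0.0399, and -1.08 ± 0.14, adjusted p = 0.00392). FANCM, the translocase that anchors the complex to DNA, stood at -0.48 and -0.62 and at -0.30 and -0.40 (-0.55 ± 0.087, adjusted p = 0.0353, and -0.35 ± 0.087, adjusted p = 0.0279). With the row trend removed, FANCM kept both calls (adjusted p = 0.0477 and 0.0114), while FANCA and FANCE kept only those on the GALNT3/T6-labelled arrays, with GALNT3 KO means of -0.87 and -0.75. FANCM has 3 passing probes, between -0.55 and -0.09 in GALNT3 KO, and with the mean of all of them it lost both calls (-0.28 and -0.20, adjusted p = 0.0958 and 0.112).

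FANCC, FANCG, FANCF and FANCL, the ligase subunit, were called lower only on the GALNT3/T6-labelled arrays, a difference between the groups that did not itself pass the test for any of them. FANCC stood at -0.20 and -0.10 in GALNT3 KO and at -1.15 and -0.64 in the second group (-0.89 ± 0.14, adjusted p = 0.00812). FANCG stood at -0.48 and -0.63 and at -1.15 and -0.45 (-0.80 ± 0.18, adjusted p = 0.0232). The means of FANCF (-0.63 ± 0.19, adjusted p = 0.0478, from arrays at -0.98 and -0.27) and FANCL (-0.43 ± 0.094, adjusted p = 0.0203, from arrays at -0.34 and -0.52) lost their calls with the trend removed, at -0.47 and -0.30. On the GALNT3 KO arrays FANCF stood at -0.14 and -0.33 and FANCL at -0.46 and -0.30. FANCB alone of the core stayed near 0, between -0.06 and 0.09 on all 4 arrays.

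FANCD2 and FANCI form the clamp that the core complex ubiquitylates at a crosslink. FANCD2 stood at -0.75 and -1.14 in GALNT3 KO and at -1.14 and -0.58 on the GALNT3/T6-labelled arrays, called lower in both (-0.94 ± 0.18, adjusted p = 0.0445, and -0.86 ± 0.18, adjusted p = 0.0168). Its 3 probes differed, the other group means being 0.12 and -0.41 in GALNT3 KO and 0.06 and -0.62 in the second group, and the GALNT3 KO call was lost with the trend removed although the mean was lower, at -1.06 (adjusted p = 0.0918). FANCI stood at -0.50 and -0.73 and at -0.998 and -0.36, and was called lower on the GALNT3/T6-labelled arrays (-0.68 ± 0.18, adjusted p = 0.0321). One of its dimmer probes read -1.43 and another 0.41 in that group.

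Damage signalling held the gene with the largest decrease of the 39. CHEK1, the kinase that halts the cell cycle downstream of ATR, stood at -1.08 and -1.46 in GALNT3 KO and at -2.39 and -1.79 on the GALNT3/T6-labelled arrays. These are decreases of 2.42-fold and 4.25-fold (-1.27 ± 0.18, adjusted p = 0.0314, and -2.09 ± 0.18, adjusted p = 0.00133). The GALNT3 KO call was lost with the trend removed (-1.08, adjusted p = 0.0602). CHEK2, the kinase downstream of ATM, stood at -0.47 and -0.06 in GALNT3 KO, not called, and at -1.44 on both GALNT3/T6-labelled arrays, called lower (-1.44 ± 0.12, adjusted p = 0.00127). The Ctrl signal of the CHEK2 probe itself differed by 1.44 on the log2 scale across the 4 arrays, the most of the set. MDC1, the scaffold that spreads the damage mark, stood at -0.47 and -1.15 in GALNT3 KO, not called, and at -1.57 and -1.002 in the second group, called lower (-1.29 ± 0.22, adjusted p = 0.00965).

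TOPBP1, an activator of ATR, stood at 0.10 and 0.02 in GALNT3 KO and at 0.27 and 0.79 on the GALNT3/T6-labelled arrays, called higher (0.53 ± 0.14, adjusted p = 0.0373) but not with the trend removed (0.28, adjusted p = 0.147). The apical kinases ATM and ATR, the chromatin reader TP53BP1 and the histone variant gene H2AFX were called in neither group. Their values ranged from -1.17 to 0.24 over the 4 arrays.

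The crosslink nuclease of ERCC1 and ERCC4, also known as XPF, cuts beside a crosslink. ERCC1 stood at 0.14 and 0.72 in GALNT3 KO, not called, and at -1.56 and -1.39 on the GALNT3/T6-labelled arrays, a 2.78-fold decrease (-1.47 ± 0.16, adjusted p = 0.0025). ERCC4 stood at 0.26 and 0.04 and at -0.89 and 0.11, called in neither group. Its 3 probes read -0.39, -0.98 and 1.10 in the second group, so no direction is given.

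**Figure D3:**
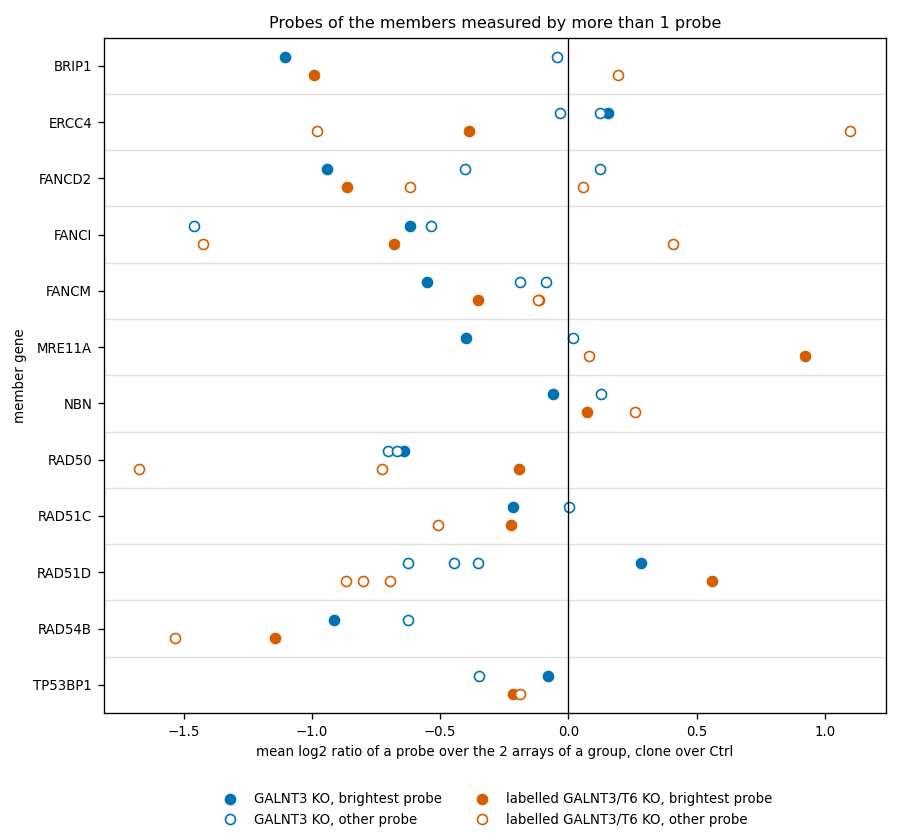
Mean log2 ratio over the 2 arrays of a group, clone over Ctrl (horizontal axis), for each passing probe of the 12 repair genes measured by more than 1 (vertical axis), with the groups in different colours, filled circles for the brightest probe, which gives the gene's value, and open circles for the others. In the GALNT3/T6-labelled group the probes of RAD51D, ERCC4, FANCI, FANCD2 and BRIP1 lie on both sides of 0.

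Of the 39 genes, 27 rested on 1 passing probe and 12 on more, 58 of 61 probes in all. Among the 12, the probes of FANCD2, BRIP1, FANCI, RAD51D and ERCC4 differed in sign on the GALNT3/T6-labelled arrays, as did those of FANCD2, MRE11A, RAD51C, NBN, RAD51D and ERCC4 in GALNT3 KO. The 3 probes of RAD50 shared their sign but ranged from -1.67 to -0.19 on the GALNT3/T6-labelled arrays.

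Setting the GALNT3/T6-labelled arrays directly against GALNT3 KO asked which repair genes differed between the groups, a comparison in which the row trend, alike on all arrays, largely cancels. Here 2 of the 39 genes were called lower and 4 higher, where 11.8% of all genes were called in each direction, and the median difference was -0.06 beside 0.00 over all genes. Both GALNT3/T6-labelled arrays lay under both GALNT3 KO arrays for 10 genes and over them for 10, where 31.0% and 30.0% of all genes did so. By the methods' threshold 5 were lower and 4 higher, where 13.7% and 13.2% of all genes passed. With the row trend removed, 2 were called lower and 3 higher, where 24.1% of all genes were called in either direction. In both directions together 6 of the 39 were called, where 23.7% of all genes were. The repair genes as a set were thus called no more often than all genes in this comparison. The single genes called are given for their values.

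ERCC1 had the largest difference, -1.90 ± 0.23 (limma adjusted p = 0.0062, 95% interval from -2.50 to -1.31), and CHEK2 followed at -1.17 ± 0.17 (adjusted p = 0.0115, interval from -1.63 to -0.71). MRE11A differed by 1.32 ± 0.27 (adjusted p = 0.0292, interval from 0.61 to 2.04), a call lost with the trend removed at nearly the same size (1.28, adjusted p = 0.0577). RBBP8 differed by 0.84 ± 0.14 (adjusted p = 0.0147), RAD51AP1 by 0.83 ± 0.16 (adjusted p = 0.022) and PALB2 by 0.77 ± 0.17 (adjusted p = 0.0349). These 4 genes stood below 0 on both GALNT3 KO arrays and above 0 on both GALNT3/T6-labelled arrays. The PALB2 call was lost with median centring, Agilent's log ratios and the deposited table (limma adjusted p up to 0.106). Median centring also lost the MRE11A call, and scaling between arrays lost that of CHEK2 (limma adjusted p = 0.0659). When either GALNT3 KO array was left out, the spread came from the GALNT3/T6-labelled pair alone, the share of all genes called in this contrast dropped to 4.44% and 5.23%, and of the 6 calls that of ERCC1 was kept. For RAD54L (-0.54, interval from -1.01 to -0.08) and CHEK1 (-0.82, interval from -1.49 to -0.14) the difference did not pass the adjusted test (adjusted p = 0.0989 and 0.0915). For BRCA1 it was 0.20, with an interval from -0.70 to 1.10, so the arrays cannot show whether the groups differ in BRCA1 by less than about that width.

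**Figure D4:**
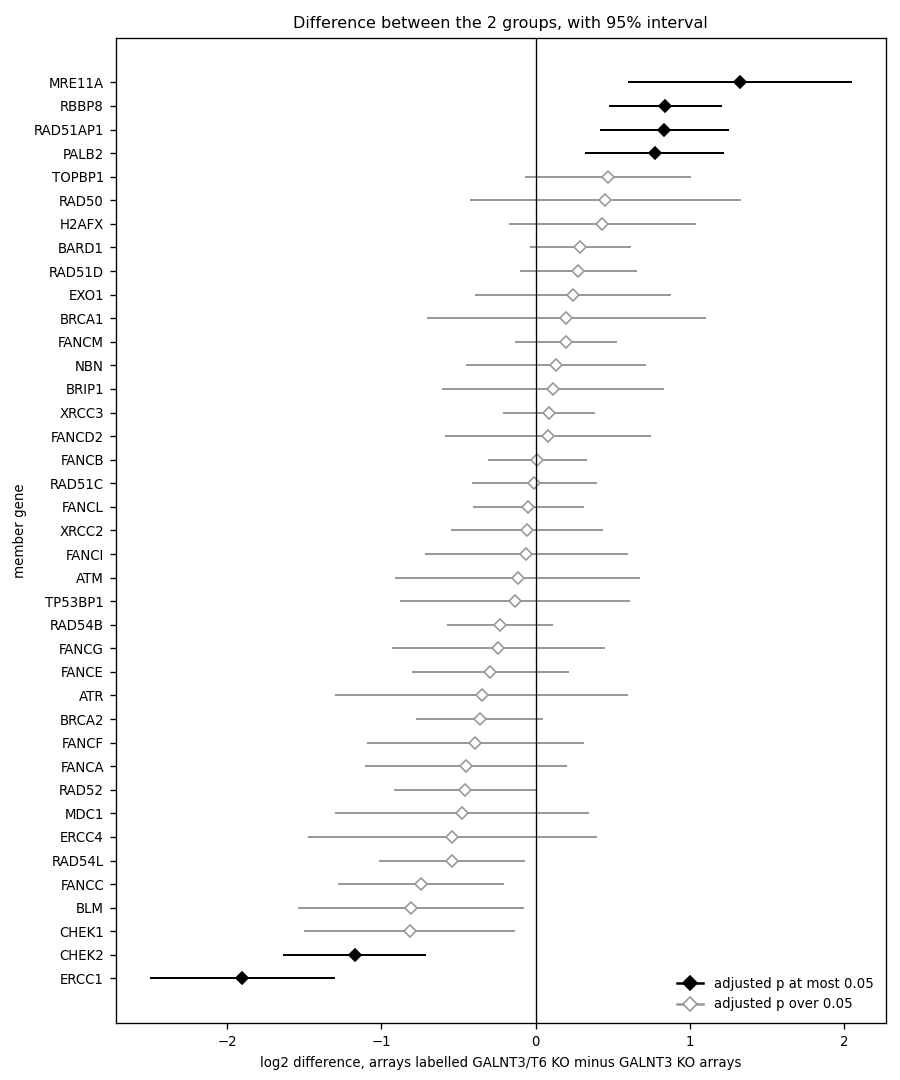
Difference in log2 ratio between the GALNT3/T6-labelled arrays and the GALNT3 KO arrays (horizontal axis) for each of the 39 repair genes (vertical axis), with 95% intervals from limma, filled black for called genes and open grey for the rest. ERCC1 and CHEK2 are called on the left of 0, and MRE11A, RBBP8, RAD51AP1 and PALB2 on the right.

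The 2 GALNT3/T6-labelled clones also differed from each other. Replicate 1 lay under replicate 2 for 28 of the 39 genes, where 51.0% of all genes did so. By the brightest probe, the gap was wide in RAD50 (-0.64 and 0.26), BRCA1 (-1.12 and -0.17) and ERCC4 (-0.89 and 0.11). The other RAD50 probes read -1.92 and -1.42, and -0.92 and -0.53. Those of ERCC4 read -1.125 and -0.84, and 1.09 and 1.105, so the width of these gaps depended on the probe. BRCA1 had 1 probe. It was narrow in CHEK2, RAD51AP1 and RBBP8. Leaving out replicate 2 moved the group's median from -0.43 to -0.77, and leaving out replicate 1 moved it to -0.36.

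Genes within 2 Mb on either side (hg19) were counted to see whether the called genes stood alone in their neighbourhood. ERCC1 had 131 measured neighbours, of which 50.4% were called lower on the GALNT3/T6-labelled arrays, with a median of -0.35. For FANCA the share was 46.0%, for FANCC 43.2%, for CHEK2 41.1%, for CHEK1 35.0% and for BRIP1 30.0%, beside the 23.1% of all genes. Around the 13 other repair genes called lower it ran from 0.0%, of the 7 neighbours of FANCL, to 26.7% around RAD54B. Around MRE11A, which was higher, 18 of 38 neighbours were called higher and 1 lower, where 24.8% of all genes were called higher. Around the other repair genes called higher, the neighbours called higher were 16 of 64 for PALB2 and 18 of 59 for RAD51AP1. They were 18 of 55 for RAD51D and 9 of 27 for TOPBP1. Of the neighbours of RAD54L 19.7% were called lower, with a median of -0.02. The part of these regions in the results was not tested.

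Other repair genes, from lists drawn up in the same way, are given for comparison. Of 47 further genes of recombination and the Fanconi pathway, 7 were called lower and 0 higher in GALNT3 KO, and 22 lower and 6 higher on the GALNT3/T6-labelled arrays. These and the list counts that follow stand beside 6.34% of all genes called lower and 4.69% higher in GALNT3 KO, and 23.1% and 24.8% in the second group. By size of change, RMI1, a partner of BLM, led the decreases in both groups (-1.05 ± 0.12, adjusted p = 0.022, and -2.17 ± 0.12, adjusted p = 0.000355). RECQL4, a helicase, was next in GALNT3 KO at -0.92 ± 0.19 (adjusted p = 0.0492). RNF168, a ubiquitin ligase that marks damaged chromatin, was next on the GALNT3/T6-labelled arrays at -1.67 ± 0.15 (adjusted p = 0.00152). SWI5, a factor of strand exchange, and WDR48, a cofactor of the enzyme that removes ubiquitin from FANCD2, were the most increased there at 1.08 ± 0.12 and 0.92 ± 0.096 (adjusted p = 0.00266 and 0.00224).

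The remaining pathways moved in both directions on the GALNT3/T6-labelled arrays. Of 12 genes of the checkpoint clamp and the ATR pathway, 3 were called lower and 0 higher in GALNT3 KO, against 2 lower and 4 higher in the second group. Of 11 end joining genes, 1 was lower and 1 higher, against 4 and 4. Nucleotide excision repair had 2 of 16 lower and 0 higher, against 7 and 3. Mismatch repair had 0 of 7 called in GALNT3 KO, against 3 lower and 1 higher, with its median at -1.08 and -0.45 on the GALNT3/T6-labelled arrays. Base excision and single-strand break repair had 1 of 21 lower and 1 higher, against 8 and 3.

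Proliferation genes were examined because recombination genes are expressed mostly in dividing cells. Of 28, 6 were called lower and 0 higher in GALNT3 KO, and 8 lower and 2 higher on the GALNT3/T6-labelled arrays. Their median by array was -0.42 and -0.51 in GALNT3 KO, beside -0.42 and -0.40 for the 39 repair genes. On the GALNT3/T6-labelled arrays it was -0.57 and 0.18, beside -0.77 and -0.36. The proliferation median was thus below 0 on 3 arrays and above 0 on GALNT3/T6-labelled replicate 2, where the repair median stayed below 0, and its part in the result was not tested.

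**Figure D5:**
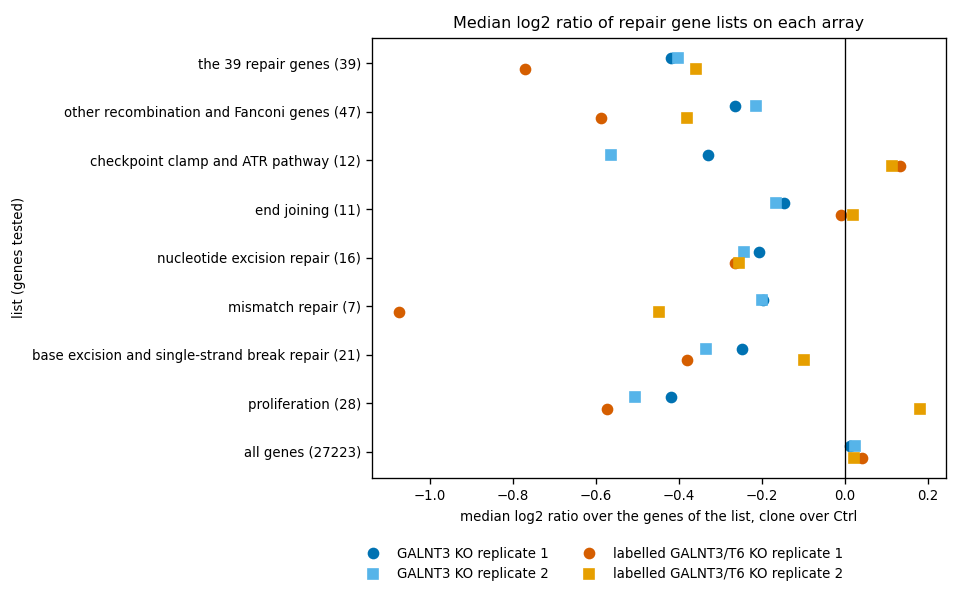
Median log2 ratio of clone over Ctrl (horizontal axis) on each of the 4 arrays for the 39 repair genes, for the other repair and proliferation lists, and for all genes (vertical axis). The 39 repair genes sit between -0.77 and -0.36 on all 4 arrays, while the proliferation list rises to 0.18 on GALNT3/T6-labelled replicate 2.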

How the data were processed

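The deposited files were Agilent scanner outputs of 4 arrays with linear intensity per spot and channel, and a value table of log10 ratios made by the authors with Feature Extraction, given as version 8.5.1.1 in the labels and 10.7.3.1 in the file headers. Each array held 45015 spots, 1639 of them controls. Mean and background intensities were corrected with normexp (offset 50) and normalized by loess (span 0.3) in limma 3.58.1 (R 4.3.3). Spots of a probe were averaged, and each gene was represented by the brightest of its probes that stood well above background, in either channel, on the 2 arrays of some group. Group means over all 4 arrays were tested with lmFit and eBayes, with Benjamini-Hochberg adjustment over 27223 genes, and the procedure was tested on simulated data. Errors are SE from limma, with 1 spread per gene shared by both groups, n = 2 clones per group. That spread was moderated toward the spread of all genes (2.67 prior and 2 residual degrees of freedom). The methods' threshold of p at most 0.05 and at least 1.5-fold was an alternative. Repair, proliferation and cell type lists were named by array symbol. The 39 genes and all lists were chosen with earlier results of these data known. Every member called was given with its values on each array, with BRCA1 and BRCA2 in any case, and the rest by range. From the other recombination genes, the 2 called with the largest change in each direction were named, and 1 gene of that list is not reported here. Probe positions are hg19 from the scanner files. The file headers give 1 slide and 1 scan for all 4 arrays, so neither could be tested as a batch. Replicate numbers were not shown to pair the clones. The number of arrays limits the precision. Figures were drawn with matplotlib 3.10.9.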

Additional observations from a re-analysis of the deposited data

Results flagged for a closer look

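The difference between the GALNT3/T6-labelled group and GALNT3 KO, tested as a contrast of the 2 groups in limma, passed the adjusted threshold for 6 of the 39 repair genes, where 23.7% of all genes passed it. ERCC1 differed by -1.90 and CHEK2 by -1.17, both lower in the GALNT3/T6-labelled group. MRE11A differed by 1.32, RBBP8 by 0.84, RAD51AP1 by 0.83 and PALB2 by 0.77, all higher there. The calls of CHEK2, MRE11A and PALB2 were each lost under at least 1 other way of processing the same arrays. ERCC1 rested on 1 probe and lay among neighbours of which 50.4% were called lower in that group. MRE11A had a second probe at 0.02 in GALNT3 KO and 0.08 in the other group, and CHEK2 had a Ctrl signal that ranged over 1.44 on the log2 scale across the arrays. The part of these measurements in the differences was not tested.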

How the results depend on the processing

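Some alternatives were chosen after seeing the data, namely removal of the row and column trend and the crossed pairing below. Calls in GALNT3 KO, 10 as reported, came to 2 with Agilent's log ratios and 2 with the deposited table, 3 with the row trend removed, 19 with scaling between arrays, 22 with the group's own arrays only, and between 0 and 22 when 1 array was left out. The share of all genes called moved with them, at 2.17%, 2.15%, 2.71%, 32.2% and 34.7% for the first 5 of these and at 0% to 34.7% when 1 array was left out. A group left with 1 array is assumed to vary like the other pair. The median in GALNT3 KO was -0.57 with median centring, -0.34 with Agilent's log ratios and with the deposited table (-0.343), -0.50 with scaling (-0.495) and -0.31 with the mean of all probes, and between -0.42 and -0.38 when 1 array was left out. It was below 0 under each alternative run. Calls on the GALNT3/T6-labelled arrays, 24 as reported, came to 14 with own arrays only, and to between 14 and 28 when 1 array was left out, where the median ranged from -0.77 to -0.36. Median centring gave 18 lower and 2 higher there. The 6 calls between the groups came to between 1 and 16 when 1 array was left out, with the median from -0.26 to 0.01, and to 4 lower and 3 higher with Agilent's log ratios. Scaling turned that median to 0.13. The methods' t-test, with n = 2 per group, gave 0 calls after Benjamini-Hochberg in each of the 3 comparisons (3, 4 and 4 at an unadjusted p under 0.05), and 2, 3 and 4 at the methods' threshold, where limma gave 11, 22 and 9. With the replicate number as a block, 3 genes were called between the groups, and with the crossed pairing 9. Deviations of same-numbered arrays correlated at -0.239, so the numbers were not taken to pair the clones. RAD51D turned to -0.45 on the GALNT3/T6-labelled arrays with the mean of all probes, and the BRCA1 difference turned to -0.27 without replicate 2 of that group and was 0.67 without replicate 1. Of the single-gene values under the alternatives, 507 kept their direction and side of the threshold, 166 kept their direction and lost the call, and 8 kept their direction and gained one (BRCA1 in GALNT3 KO with scaling, adjusted p = 0.0152, among them). All 39 genes were above background in both channels on all 4 arrays, so the filters on dim probes could remove none of them.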
